A study of Homo sapiens with 24 samples.

Results

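Peaks of N6-methyladenosine (m6A) on multicopy transcripts were examined in U2OS, a human osteosarcoma cell line. A transcript was taken as multicopy when its identifier in the deposited peak lists carried a copy number after the RefSeq accession. This rule gave 572 of 52777 peaks, on 114 of 9674 transcripts. Poly(A) RNA of cells that were wild type (WT) or METTL3 KO, all grown with 10 µM BrdU, was precipitated with an m6A antibody and sequenced beside its input as reads of 50 bases. Cells were either left without UVC (minus UV) or given a dose labelled 50 J and lysed after 2 min at 37 °C (plus UV). A collection time of 2 min is recorded for the minus UV samples too. The immunoprecipitated (IP) libraries, each with an input, numbered 3 and 4 for WT minus and plus UV and 3 and 2 for KO minus and plus UV. The 4 conditions are called unirradiated WT, irradiated WT, unirradiated KO and irradiated KO below. The sources used here do not say whether the knockout is 1 clone or whether replicates are separate cultures.

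The authors deposited 1 peak list per condition, with the start and end of each peak in bases along the transcript and no score, count or depth. A condition therefore has no replicate values, no test between conditions could be made, and the depth behind a peak is unknown. The lists hold no expression value, so neither the cell line nor the loss of METTL3 was checked from them. The intervals below are 95% Wilson intervals for counting error alone. Peaks of 1 transcript are not independent, and neither are transcripts that are copies of 1 gene.

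m6A is placed on messenger RNA in the nucleus mainly by METTL3 with its partner METTL14, and reader proteins that bind the mark act on splicing, export, translation and decay. In peak mapping by antibody, short reads are assigned to transcripts by sequence. Where copies of a gene are nearly identical, as in recently duplicated families, or where the genome build carries alternate versions of a region, as it does for the major histocompatibility complex (MHC), a read can match several places, and the peak reported on 1 copy may come from RNA of another.

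The RefSeq gene table matched 113 of the 114 transcripts to a gene, 100 of them protein-coding. The others matched were 7 transcribed pseudogenes, 4 long noncoding RNAs, 1 noncoding pseudogene and 1 ribosomal RNA. The number after the accession was 2 for 76 transcripts and at most 8. In the MHC region (chromosome 6, 28 to 34 Mb), which held 32 of the transcripts, 22 carried a number of 3 or more, against 16 of the 82 elsewhere. The sources used here do not say what the number counts. No accession was listed under more than 1 number, and none was listed both with and without a number. The rule did not collect every duplicated gene: SMN1, SULT1A4, NOMO1, NOMO3, RGPD3, RGPD4 and HSPA1A were listed without a number, while SMN2, SULT1A3, NOMO2, 4 other RGPD genes and HSPA1B carried one.

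Some such copies were compared near gene starts, in windows of 300 bases from the RefSeq promoter table (build GRCh38.p14). A window holds 250 bases before the start, which lie outside a transcript beginning there, and 50 after it. Windows were compared for F8A, SERF1, SULT1A3 with SULT1A4 and their SLX1 readthrough genes alone. They do not show how alike copies are under peaks further along, or in other families. Families called near-identical below carry that name without a likeness measured outside these windows. Of the 113 genes, 92 had a window. The first 3 lines give the 250 upstream bases of the F8A genes, which encode a protein that binds huntingtin, with the only differing position in capitals. Counted from 1 at the first base of the window, F8A1 differs from F8A2 by T130C, and from F8A3 by the same substitution. F8A2 and F8A3 are alike in all 300 bases. The 250 upstream bases lie at chrX:154886105-154886354 on the plus strand for F8A1 and at chrX:155381845-155382094 on the plus strand for F8A2. For F8A3 they lie at chrX:155458621-155458870 on the minus strand.
F8A1: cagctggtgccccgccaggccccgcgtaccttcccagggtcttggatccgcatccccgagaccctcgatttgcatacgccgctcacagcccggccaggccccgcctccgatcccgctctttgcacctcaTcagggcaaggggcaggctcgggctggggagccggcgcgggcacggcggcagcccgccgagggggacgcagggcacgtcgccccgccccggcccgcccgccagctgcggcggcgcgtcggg
F8A2: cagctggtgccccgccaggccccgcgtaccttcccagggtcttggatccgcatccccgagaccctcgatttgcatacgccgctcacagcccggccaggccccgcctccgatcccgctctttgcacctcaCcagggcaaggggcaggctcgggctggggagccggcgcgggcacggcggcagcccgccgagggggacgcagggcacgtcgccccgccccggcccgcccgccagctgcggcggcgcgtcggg
F8A3: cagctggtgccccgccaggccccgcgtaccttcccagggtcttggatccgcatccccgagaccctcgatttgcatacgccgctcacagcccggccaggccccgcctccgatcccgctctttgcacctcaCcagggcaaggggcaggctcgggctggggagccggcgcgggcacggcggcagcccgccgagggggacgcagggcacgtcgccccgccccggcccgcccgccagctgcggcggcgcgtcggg

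The next sequences stand for pairs without any difference in 300 bases, so that the copies cannot be told apart by sequence there. The 250 bases upstream of SERF1A at chr5:70900419-70900668 (plus strand) are also those of SERF1B at chr5:70025001-70025250 (plus strand). The 250 bases upstream of SULT1A3 at chr16:30199005-30199254 (plus strand) are also those of SULT1A4 at chr16:29459663-29459912 (plus strand). The whole window of the noncoding readthrough transcript SLX1A-SULT1A3 at chr16:30194183-30194482 (plus strand) is also that of SLX1B-SULT1A4 at chr16:29454841-29455140 (plus strand). Its capitals mark the 50 transcribed bases, over which the peaks of both genes at transcript bases 1 to 110 in irradiated WT and 1 to 220 in irradiated KO would lie if the listed transcript begins at the same base, which was not tested.
SERF1A and SERF1B: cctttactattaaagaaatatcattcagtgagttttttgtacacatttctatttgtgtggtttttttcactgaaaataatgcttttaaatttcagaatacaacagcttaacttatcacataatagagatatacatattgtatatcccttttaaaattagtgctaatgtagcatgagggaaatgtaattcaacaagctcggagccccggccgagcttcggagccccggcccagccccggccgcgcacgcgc
SULT1A3 and SULT1A4: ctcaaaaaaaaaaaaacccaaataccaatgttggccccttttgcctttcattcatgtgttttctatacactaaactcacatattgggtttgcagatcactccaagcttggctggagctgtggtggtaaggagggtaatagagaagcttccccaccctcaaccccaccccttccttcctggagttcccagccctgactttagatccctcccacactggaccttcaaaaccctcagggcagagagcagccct
SLX1A-SULT1A3 and SLX1B-SULT1A4: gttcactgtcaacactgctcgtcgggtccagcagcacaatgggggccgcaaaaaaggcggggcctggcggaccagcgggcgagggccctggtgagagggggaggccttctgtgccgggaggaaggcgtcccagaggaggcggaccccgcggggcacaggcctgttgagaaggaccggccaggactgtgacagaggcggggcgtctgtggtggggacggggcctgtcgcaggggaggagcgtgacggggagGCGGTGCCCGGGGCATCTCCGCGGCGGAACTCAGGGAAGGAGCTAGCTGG

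Multicopy transcripts carried 136 peaks in unirradiated WT, 177 in irradiated WT, 130 in unirradiated KO and 129 in irradiated KO. They made up 0.972% of the first list (0.823 to 1.15), 1.14% of the second (0.989 to 1.32), 0.938% of the third (0.791 to 1.11) and 1.36% of the fourth (1.15 to 1.62). In WT cells the number with UV was 1.30 times that without, against 1.11 times for the peaks of all transcripts. In KO cells it was 0.992 times, against 0.684 times for all. The multicopy peaks thus kept their number in the irradiated KO list, which rested on 2 IP libraries and held fewer peaks than any other. Among peaks of at least 150 bases the KO ratio was 0.827 for multicopy transcripts and 0.634 for all. The share of multicopy peaks at the smallest width of 100 bases was 13.95% in irradiated KO and between 3.95% and 8.09% in the other lists, and over all peaks it was likewise highest in irradiated KO, at 9.59% against 4.57% to 6.83%.

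**Figure D1:**
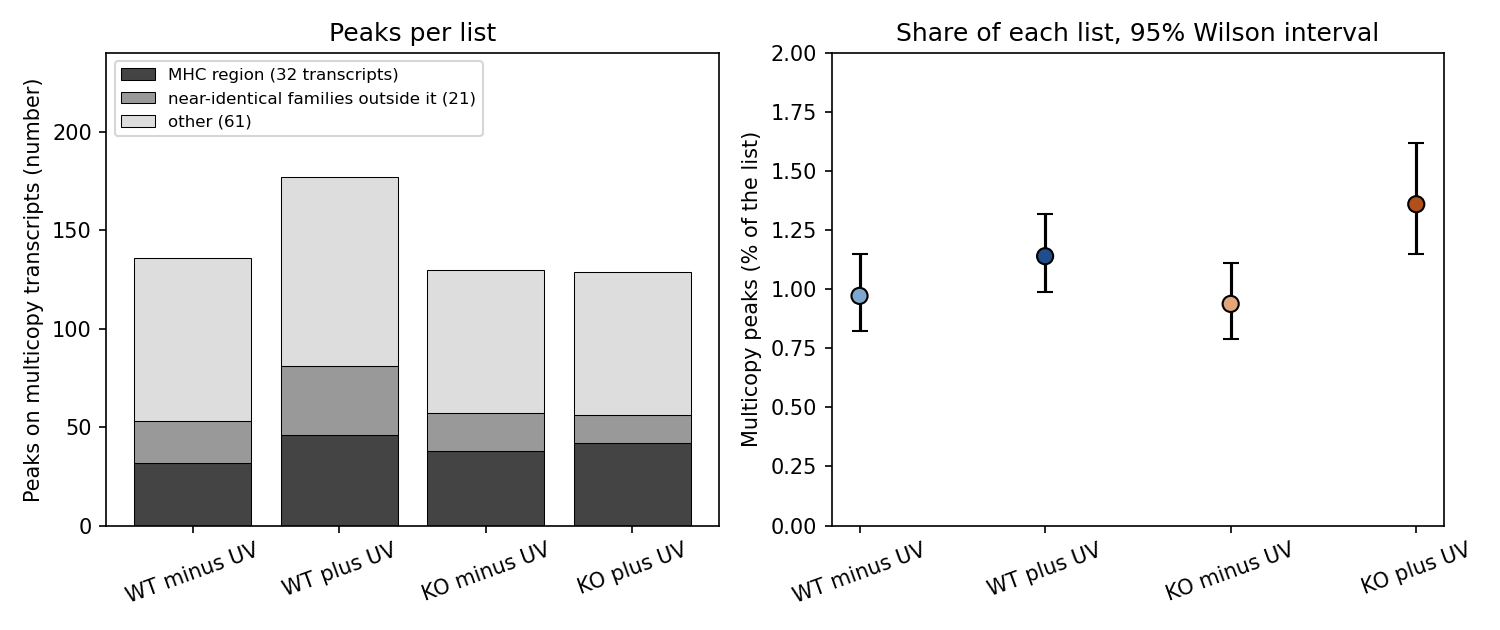
Number of peaks on multicopy transcripts in each list (left, stacked by MHC region, near-identical families outside it and other transcripts) and their share of the list in percent with 95% Wilson intervals (right). The KO lists hold 130 and 129 multicopy peaks without and with UV, and the share is highest in irradiated KO, at 1.36%.

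By location, the ratio in KO cells was 1.11 for the MHC region (38 peaks without UV and 42 with it) and 0.946 for the other multicopy transcripts (92 and 87). The 41 transcripts of the MHC region that were listed without a number carried 50 and 41 peaks, a ratio of 0.820. Near-identical families outside the MHC region carried 21, 35, 19 and 14 peaks in the order unirradiated WT, irradiated WT, unirradiated KO and irradiated KO, which is the order of all further series of 4 values. These 21 transcripts supplied 14 of the 41 peaks by which irradiated WT exceeded unirradiated WT. The rest was split between the MHC region, with 32 and 46 peaks, and the other transcripts, with 83 and 96. In WT cells the ratio was 1.44 for the MHC region and 1.26 for the other multicopy transcripts. For the MHC transcripts without a number it was 1.18.

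Peak by peak, 65 of the 177 multicopy peaks of irradiated WT (36.7%, 29.97 to 44.0) overlapped no unirradiated WT peak by at least 1 base, beside 29.95% for all peaks of that list. Of the 136 in unirradiated WT, 29 (interval 15.3% to 28.9%) had no irradiated WT overlap, beside 22.4%. In KO cells, 36 of 129 with UV (27.9%, 20.9 to 36.2) had no overlap without UV, beside 22.6%, whereas 40 of 130 without UV (30.8%, 23.5 to 39.2) had none with UV, beside 47.04%. This last pair was the widest apart, and the interval of the multicopy share lay below the share of all peaks. Without the MHC region, the WT share of 36.7% became 33.6% (26.1 to 42.04), an interval that holds the 29.95% of all peaks. On transcripts with a peak in both KO lists the corresponding shares were 15.9% (10.2 to 24.0) and 25.0%. At the level of transcripts, 17 of 78 multicopy transcripts with a unirradiated KO peak (21.8%) had none in irradiated KO, against 32.7% of all.

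The genes of multicopy transcripts were shorter than the rest, with a median genomic length of 20.1 kb against 33.7 kb over all matched transcripts. The next shares are of transcripts with an unirradiated KO peak. Those of genes over that 33.7 kb had no irradiated KO peak in 35.9% of all cases (34.3 to 37.5) and in 6 of 35 multicopy cases (17.1%, 8.10 to 32.7). For shorter genes the shares were 29.4% of all and 11 of 43 multicopy transcripts (25.6%, 14.9 to 40.2). The part of gene length and of multiple placement of reads in the share of peaks found again was not tested.

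Between genotypes without UV, 46 of 136 WT peaks (33.8%, 26.4 to 42.1) overlapped no KO peak, beside 32.1% of all, and 38 of 130 KO peaks (29.2%, 22.1 to 37.6) overlapped no WT peak, beside 31.1%. With UV, 73 of 177 WT peaks (41.2%, 34.3 to 48.6) had no KO overlap, beside 50.95% (without the MHC region 45.8%, 37.5 to 54.3), and 25 of 129 KO peaks (19.4%, 13.5 to 27.0) had no WT overlap, beside 19.3%. Of the 65 WT peaks found with UV and not without it, 32 (49.2%, 37.5 to 61.1) overlapped no peak of a KO list, near the 48.7% of all such peaks. For the 112 found in both WT lists the value was 18.8% (12.6 to 27.0), near the 16.4% of all such peaks.

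**Figure D2:**
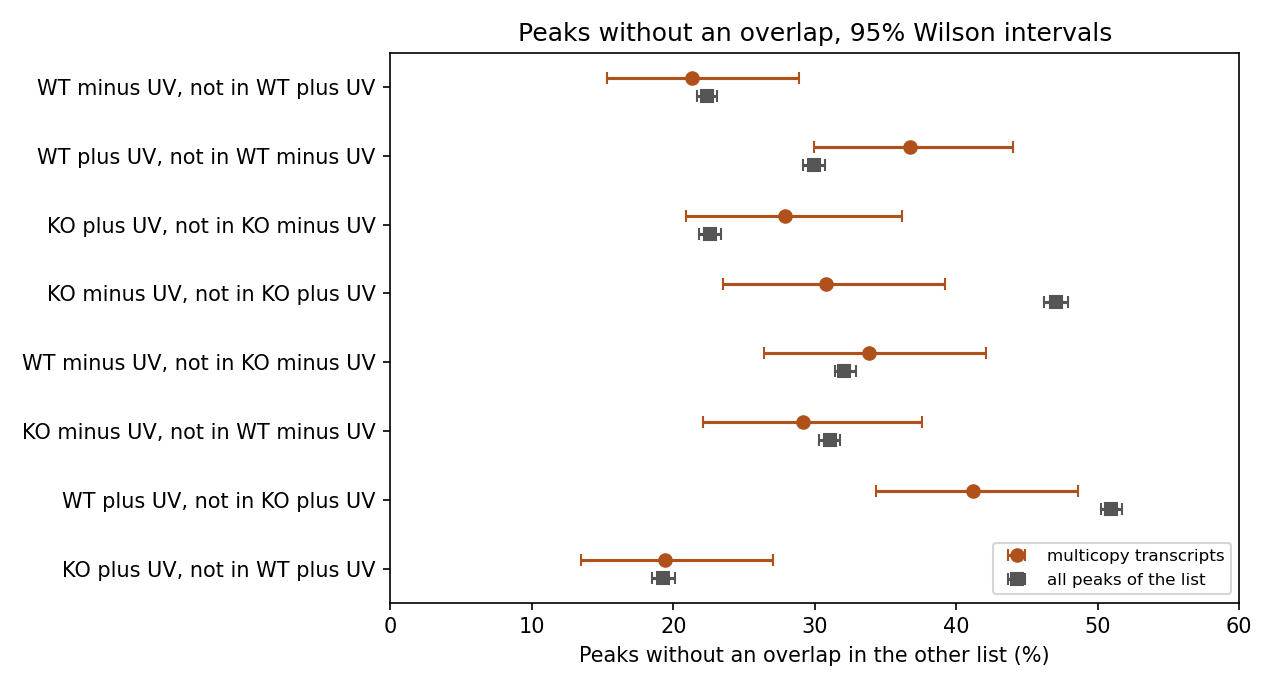
Percent of the peaks of a list that overlap no peak of the other list, for multicopy transcripts (circles) and all peaks (squares), with 95% Wilson intervals. In 5 of the 8 comparisons the multicopy interval reaches the value of all peaks. The exceptions are unirradiated KO peaks not in irradiated KO (30.8% and 47.04%), irradiated WT peaks not in irradiated KO (41.2% and 50.95%) and irradiated WT peaks not in unirradiated WT, where the lower bound of 29.97% lies just above 29.95%.

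Of the 114 transcripts, 47 (41.2%, 32.6 to 50.4) carried a peak in every list, beside 41.05% of all transcripts. Peaks with and without UV in WT cells, and none in KO cells, were found on 12 (10.5%, beside 7.20%), and the converse on 2 (1.75%, beside 1.98%). In irradiated WT alone there were 9 (7.89%, beside 7.02%), in unirradiated KO alone 5 (4.39%, beside 4.24%), in unirradiated WT alone 2 (1.75%, beside 4.48%) and in irradiated KO alone 1 (0.877%, beside 1.77%). Both UV lists and no other held 6 (5.26%, 2.43 to 11.01, beside 1.97%), and both lists without UV and no other held 1 (0.877%, beside 2.28%). Absent from irradiated KO alone were 7 (6.14%, 3.01 to 12.1, beside 13.4%), and absent from unirradiated WT alone 8 (7.02%, beside 4.59%). Absent from irradiated WT alone were 4 (3.51%, 1.37 to 8.68, beside 1.22%). The background lay outside the multicopy interval for the patterns of both UV lists alone, absence from irradiated KO alone and absence from irradiated WT alone, which rest on 6, 7 and 4 transcripts, and inside it for the other patterns given here. The last 4 include GTF2H2B and GTF2H2C, copies of 1 family, and the 12 found in WT cells alone include MAGED4 and MAGED4B. Such copies are not independent, and the intervals make no allowance for this.

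**Figure D3:**
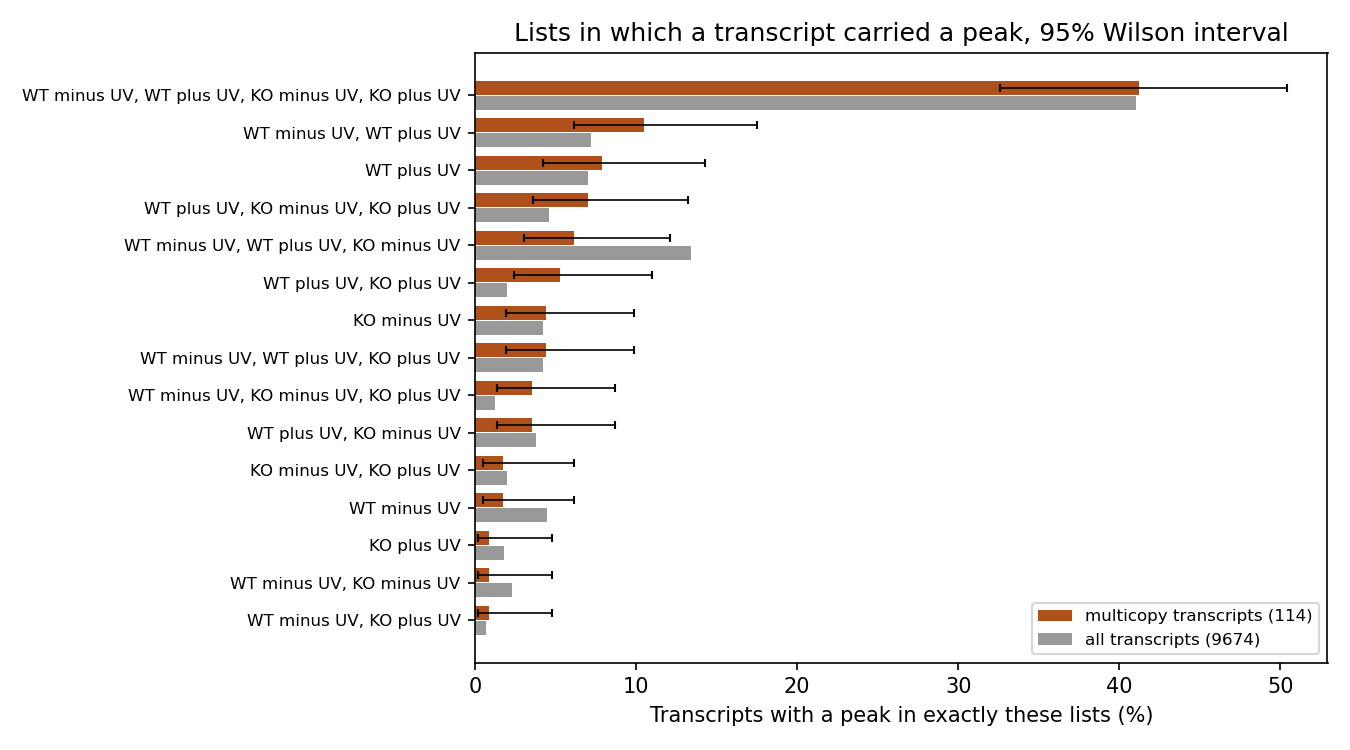
Percent of transcripts that carried a peak in exactly the lists named on the left, for the 114 multicopy transcripts (with 95% Wilson intervals) and all 9674 transcripts. The pattern with every list holds 41.2% and 41.05%, and the pattern that lacks irradiated KO alone holds 6.14% and 13.4%.

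In 4 pairs of copies, every peak of 1 copy had the same start and end on the other, in each list where the pair had peaks. SMN2, which encodes the survival motor neuron protein of spliceosome assembly (chromosome 5, 70049523 to 70090528, GRCh38), and the unnumbered SMN1 both had peaks at bases 122 to 230, 721 to 890 and 1171 to 1350 in unirradiated WT. In irradiated WT both had 120 to 260 and 703 to 903, in unirradiated KO both had 51 to 150, 707 to 898 and 1211 to 1330, and in irradiated KO neither had a peak. SULT1A3, a sulfotransferase of catecholamines, shared all of its peaks with SULT1A4: 831 to 1028 in unirradiated WT, 11 to 150 and 881 to 1021 in irradiated WT, and 845 to 1039 in unirradiated KO. MAGED4 and MAGED4B, melanoma antigen family members on chromosome X, shared 921 to 1180 in unirradiated WT and 921 to 1250 in irradiated WT and had no KO peak. The pair SLX1A-SULT1A3 and SLX1B-SULT1A4, whose window is printed above, was the fourth, with peaks in the UV lists alone. The transcript sequences under these peaks were not compared.

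The RGPD genes, duplicates of the nucleoporin gene RANBP2 on chromosome 2, carried 5, 17, 2 and 0 peaks over 6 transcripts, 4 of them numbered. RGPD5 (109760618 to 109857705) had peaks at 3019 to 3280, 3605 to 3740, 4161 to 4441 and 4771 to 4959 in irradiated WT and none in the other lists. RGPD6 (110513802 to 110611056) had 3531 to 3640 and 4077 to 4230 in the same list alone, and the unnumbered RGPD3 and RGPD4 had 3 and 4 peaks there alone. RGPD8 (112368369 to 112433645) had 3151 to 3400 and 4341 to 4550 in unirradiated WT and 3191 to 3360, 3681 to 3900, 4351 to 4585 and 4881 to 5061 in irradiated WT. RGPD1 (86913659 to 87013976) went the other way, with peaks at 2974 to 3136, 4121 to 4333 and 4648 to 4818 in unirradiated WT, at 4096 to 4240 and 4648 to 4811 in unirradiated KO, and none in either UV list. A peak in irradiated WT alone on RGPD5 or RGPD6 thus stood beside peaks on RGPD1 and RGPD8 in unirradiated WT, and the family as a whole had peaks in every list but irradiated KO.

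GTF2H2, which encodes a subunit of TFIIH, the complex that opens DNA in transcription and nucleotide excision repair, had copies that differed in the lists that held them, while the family had a peak in every list. GTF2H2 itself (chromosome 5, 71035347 to 71067676) had a peak at 18 to 179 in irradiated WT, 20 to 176 in unirradiated KO and 16 to 176 in irradiated KO, and none in unirradiated WT. GTF2H2C had 20 to 198 in unirradiated WT, 20 to 183 in unirradiated KO and 22 to 183 in irradiated KO, and the pseudogene GTF2H2B had 51 to 183, 10 to 179 and 19 to 184 in the same lists, both without a irradiated WT peak. GTF2H2C_2 had a peak from base 1 in every list, ending at 155, 154, 148 and 154, and a second peak in the UV lists alone, at 176 to 320 in WT and 174 to 350 in KO cells. Over the 4 transcripts the family carried 3, 3, 4 and 5 peaks, all but 2 of them beginning in the first 51 bases. SERF1A and SERF1B, neighbours of SMN in the same duplicated region, had peaks at 1401 to 1626 and 1391 to 1620 in irradiated WT, and SERF1B had 1591 to 1690 in unirradiated KO.

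Of the F8A genes, F8A1 had peaks at 1001 to 1166 and 1167 to 1428 in irradiated WT and at 1061 to 1171 in irradiated KO, while F8A2 and F8A3 had 948 to 1110 and 945 to 1110 in irradiated WT alone. None of the 3 had a peak without UV. NOMO2, a membrane protein of the endoplasmic reticulum, had peaks at 19 to 200, 2143 to 2317 and 3592 to 3853 in unirradiated WT, and 17 to 170, 2141 to 2317, 3596 to 3842 and 3843 to 3951 in irradiated WT. In unirradiated KO it had 15 to 150, 2145 to 2315 and 3590 to 3874, and in irradiated KO 15 to 120, 3601 to 3851 and 3852 to 3952. The middle peak was not listed on NOMO2 in irradiated KO, but NOMO1 had a peak at 2211 to 2310 there. The unnumbered relatives NOMO1 and NOMO3 carried 4, 4, 5 and 4 and 2, 3, 3 and 3. All 3 NOMO transcripts had a peak that began within the first 81 bases in every list. The pseudogene GOLGA2P10 and the unnumbered GOLGA2P7 carried 3 peaks each in every list, the last of which in GOLGA2P10 spanned 2553 to 2760, 2551 to 2758, 2551 to 2756 and 2552 to 2761. HERC2P9, a pseudogene of the ubiquitin ligase gene HERC2, had 2201 to 2300 in unirradiated WT, 2101 to 2234 and 2235 to 2396 in irradiated WT, 2039 to 2240 and 2241 to 2372 in unirradiated KO, and 2071 to 2222 in irradiated KO. Of the 12 families compared, 5 had a peak in every list over all of their copies. Each of these 5 already had 1 numbered transcript with a peak in every list, so pooling the copies added no family. Of the 22 numbered transcripts in the 12 families, 5 had a peak in every list, beside 41.05% of all transcripts.

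**Figure D4:**
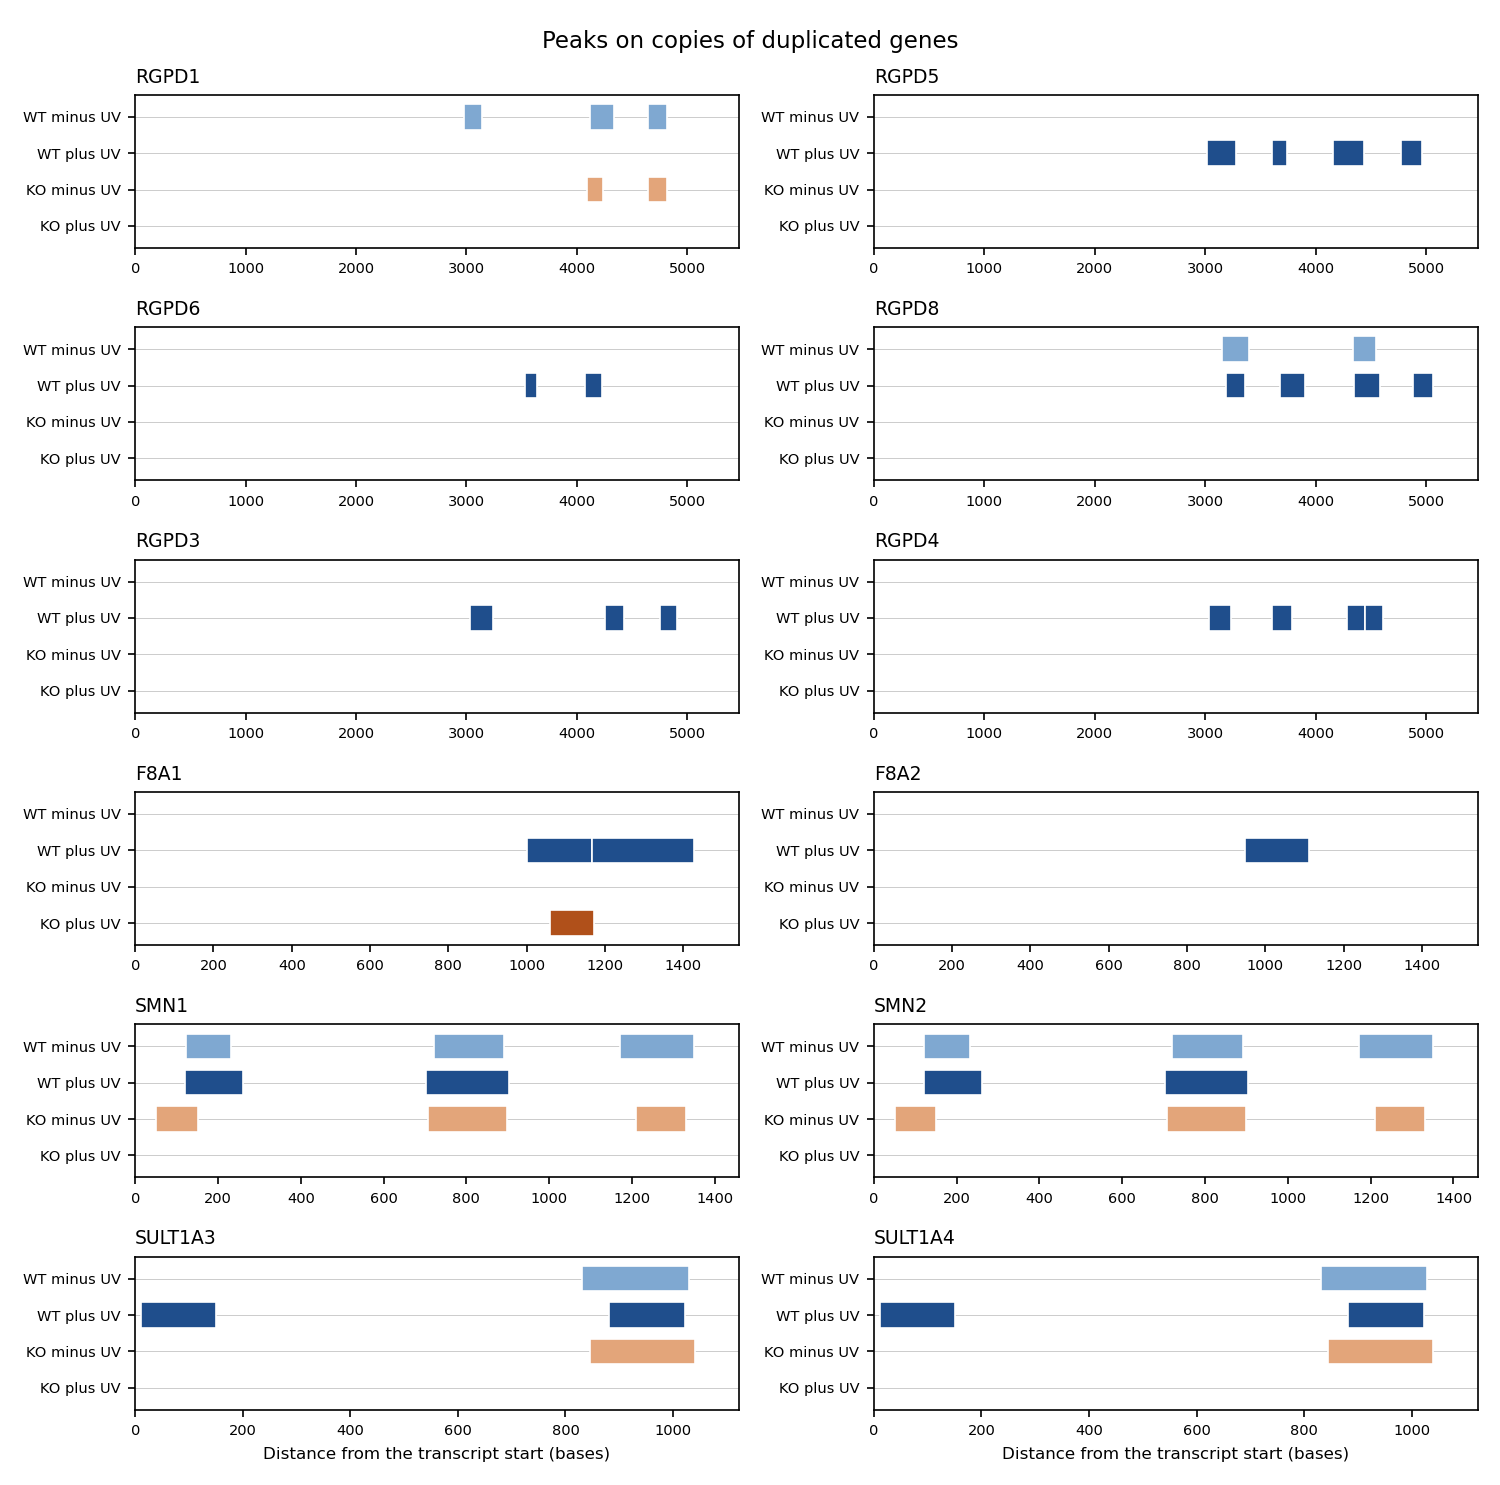
Peaks along transcripts of duplicated genes, by list; each bar spans a peak, the axis is the distance from the transcript start in bases, and copies of a family share 1 scale. RGPD5, RGPD6, RGPD3 and RGPD4 have bars in irradiated WT alone, RGPD1 in the lists without UV alone, and SMN1 with SMN2 and SULT1A3 with SULT1A4 show the same bars.

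The 32 MHC transcripts, from a gene-dense stretch best known for antigen presentation, carried 32, 46, 38 and 42 peaks, and 14 of them (43.8%, 28.2 to 60.7) had a peak in every list. Among the 41 transcripts of the region without a number, 17 (41.5%, 27.8 to 56.6) did. Of the antigen presentation genes, TAP1 and TAP2, which form the peptide transporter, and PSMB9, a subunit of the immunoproteasome, were numbered. TAP1 had a peak at 2731 to 2869 in irradiated WT and at 251 to 350 in irradiated KO, so its UV peaks did not coincide. TAP2 had 2291 to 2424 in unirradiated WT and 2331 to 2439 in irradiated KO. PSMB9 had 10 to 176, 7 to 163 and 10 to 160 in the 3 lists other than unirradiated WT.

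The 5 numbered chromatin and transcription genes of the region carried 4, 11, 2 and 7 peaks. Totals with UV were thus the higher in both genotypes, as for all numbered MHC transcripts (32, 46, 38 and 42). For the peaks of all transcripts the ratio with UV to without was 1.11 in WT and 0.684 in KO cells. In KO cells MDC1, RING1 and EHMT2 had more peaks with UV, RXRB had fewer and DAXX had none. The difference was not tested. MDC1, a mediator of the DNA damage checkpoint (chromosome 6, 30699807 to 30717281), had peaks at 2841 to 2970 and 3181 to 3321 in unirradiated WT. In irradiated WT it had 1191 to 1330, 2791 to 3010, 3141 to 3330 and 5921 to 6020, in irradiated KO 2921 to 3090, 3141 to 3310 and 5951 to 6050, and in unirradiated KO none. RING1, a ubiquitin ligase of Polycomb complexes (33208500 to 33212716), had 1091 to 1279 and 1441 to 1551 in irradiated WT and 1091 to 1260 and 1461 to 1560 in irradiated KO, and none without UV. EHMT2, a histone H3 lysine methyltransferase (31879759 to 31897698), had 1044 to 1234 and 3591 to 3841 in irradiated WT, 3781 to 3880 in unirradiated KO and 971 to 1070 and 3771 to 3879 in irradiated KO. Its 3 peaks in the KO lists were of 100 to 109 bases, near the smallest width. RXRB, a nuclear receptor, carried 1, 2, 1 and 0 peaks, and DAXX, a histone chaperone, carried 1, 1, 0 and 0.

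The list of RNA processing and translation genes held 3 numbered transcripts, with 7, 9, 9 and 9 peaks and each present in every list. VARS2 and DHX16, described below, have related roles but were not on that list, and neither had a peak in every list. PRRC2A, an RNA-binding protein reported as an m6A reader (31620715 to 31637771), had a peak that began at 4187 in unirradiated WT, 4188 in irradiated WT, 4189 in unirradiated KO and 4188 in irradiated KO and ended between 4420 and 4505. Its other peaks were at 2351 to 2460 and 3397 to 3570 in unirradiated WT and at 1751 to 1950, 2331 to 2490 and 3389 to 3600 in irradiated WT. In unirradiated KO they were at 1791 to 1930, 2321 to 2510 and 3356 to 3530, and in irradiated KO at 1801 to 1920, 2311 to 2500 and 3380 to 3480. Only the unirradiated WT list thus lacked the most upstream of them. ABCF1, an ATP-binding protein of translation initiation (30571442 to 30591522), had 2671 to 2960 and 2971 to 3192 in unirradiated WT, 2691 to 2950 and 3071 to 3195 in unirradiated KO and 2731 to 2970 and 3061 to 3197 in irradiated KO. In irradiated WT it had 2671 to 2920 and 3011 to 3191, and also 78 to 360 and 641 to 860, which no other list held. VARS1, the cytosolic valyl-tRNA synthetase, had peaks at 224 to 563 and 1091 to 1244 in unirradiated WT, at 226 to 559 in irradiated WT, at 225 to 479, 1091 to 1239 and 4141 to 4257 in unirradiated KO and at 224 to 469, 1061 to 1228 and 4161 to 4266 in irradiated KO. The peak near its end was found in the KO lists alone, whereas VARS2, its mitochondrial counterpart, carried 3, 1, 0 and 0 peaks.

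Of the remaining MHC genes, HSPA1B, a stress-induced HSP70 chaperone, had a peak at 2001 to 2186 in unirradiated WT, 1931 to 2055 and 2056 to 2207 in irradiated WT, 1971 to 2191 in unirradiated KO and 1971 to 2188 in irradiated KO, and a further one at 851 to 960 in unirradiated KO. Its unnumbered partner HSPA1A had a peak between 841 and 1024 in the 3 lists other than irradiated KO. RGL2, a regulator of RAL GTPases, had a pair of peaks that met end to end in every list, with the border after base 551, 549, 563 and 547. TCF19 carried 0, 2, 2 and 2 peaks, with starts at 594, 594 and 599 and at 1806, 1817 and 1830. DHX16, a splicing helicase, carried 2, 3, 0 and 1. PPP1R10, a regulatory subunit of protein phosphatase, had 3701 to 3891 in unirradiated WT, 221 to 332 and 3661 to 3850 in irradiated WT, 211 to 334 and 3671 to 3866 in unirradiated KO and 51 to 150 and 3671 to 3867 in irradiated KO. The kinase and phosphatase genes PPP1R10, CSNK2B and DDR1 carried 4, 4, 5 and 5 peaks in all, and NEU1, NFKBIL1, VPS52, ABHD16A and FLOT1 had a peak in every list.

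**Figure D5:**
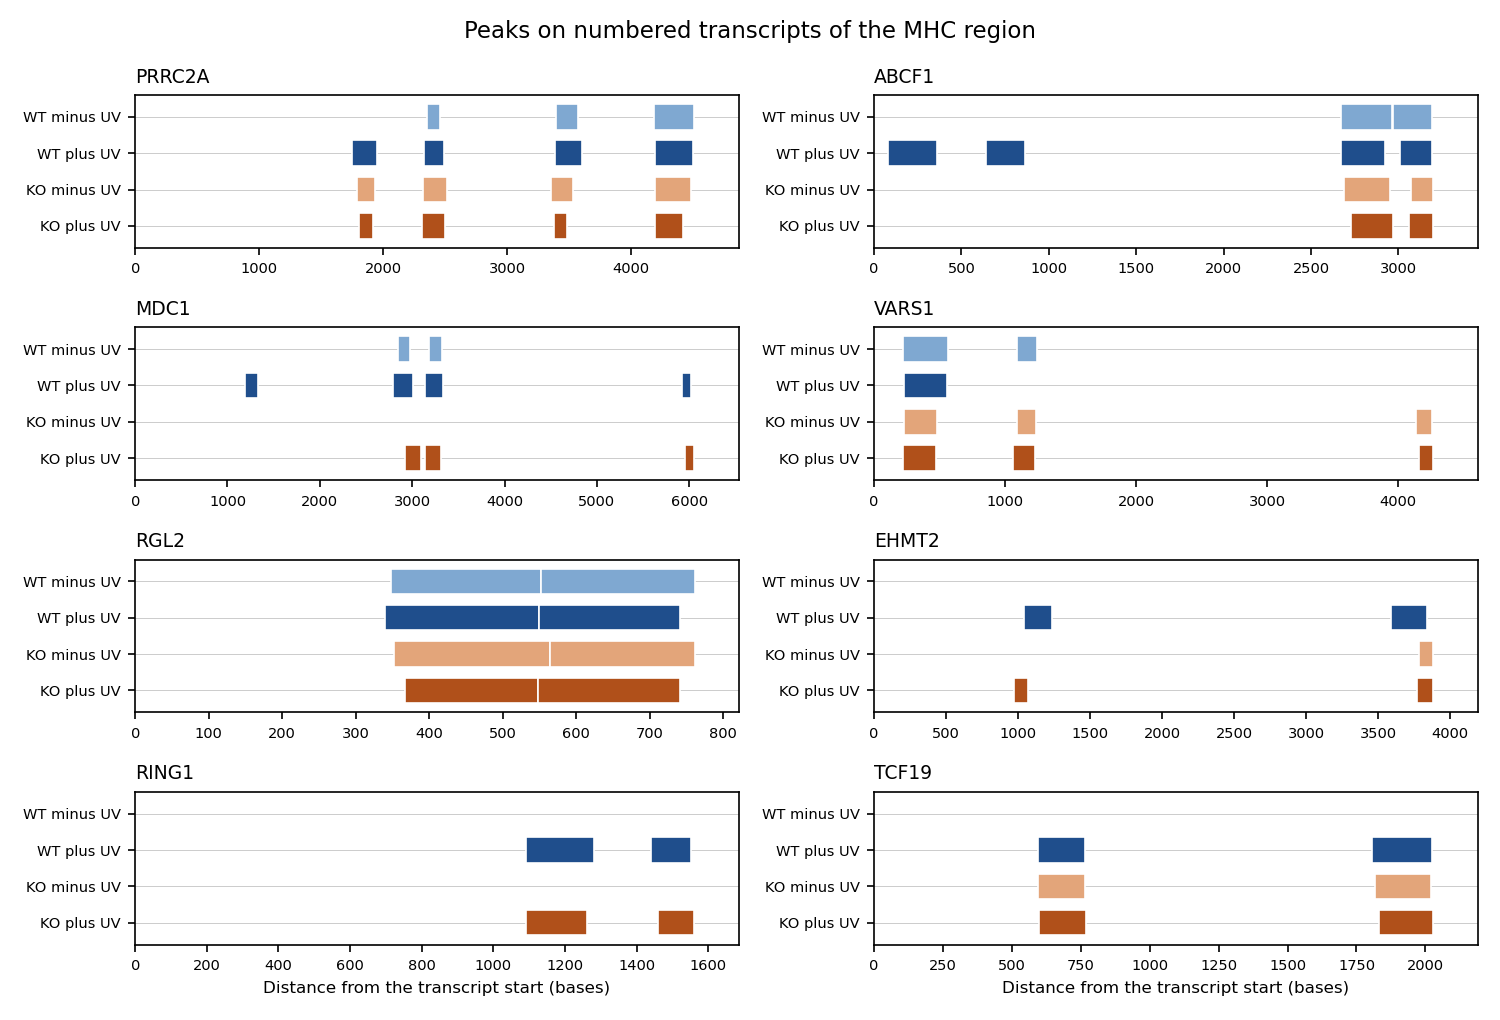
Peaks along 8 numbered transcripts of the MHC region, by list; each bar spans a peak and the axis is the distance from the transcript start in bases. RING1 has bars in the UV lists alone, MDC1 lacks them in unirradiated KO, and TCF19 and EHMT2 lack them in unirradiated WT.

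Among multicopy transcripts outside the MHC region and the families, the most peaks were found on CDH4, a cadherin of cell adhesion (chromosome 20, 61252261 to 61940617), with 4 in every list and the first at 2758 to 3009, 2759 to 3001, 2760 to 3016 and 2758 to 3006. The other CDH4 peaks were at 3721 to 3944, 3972 to 4268 and 5021 to 5150 in unirradiated WT, 3721 to 3985, 4024 to 4251 and 4361 to 4490 in irradiated WT, 3719 to 3944, 3945 to 4250 and 4861 to 5080 in unirradiated KO, and 3729 to 3942, 3943 to 4263 and 5031 to 5130 in irradiated KO. The last CDH4 peak thus varied in place while the first stayed within a few bases. SLC12A7, a potassium chloride cotransporter, had 24 to 200, 3204 to 3427 and 4099 to 4304 in unirradiated WT, 28 to 190, 3203 to 3425, 3481 to 3980 and 4099 to 4304 in irradiated WT, 14 to 200, 3231 to 3426 and 4099 to 4305 in unirradiated KO, and 28 to 195, 3261 to 3381, 3738 to 4108 and 4109 to 4302 in irradiated KO. The peak at 3481 to 3980 was the widest of all multicopy peaks.

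LPCAT1, an acyltransferase of phospholipids, had 1641 to 1820, 3271 to 3443 and 3641 to 3740 in unirradiated WT, and 1617 to 1830, 3245 to 3448 and 3710 to 3830 in irradiated WT. In unirradiated KO it had 1617 to 1829, 3233 to 3434 and 3651 to 3750, and in irradiated KO 1617 to 1821, 3245 to 3442, 3651 to 3750 and 3801 to 3900. CRK, a signalling adaptor, had 3 peaks in every list, beginning at 60, 61, 65 and 53, at 411, 411, 409 and 411, and at 1169, 1170, 1169 and 1169. LSM14A, a protein of RNA granules, had 53 to 238, 52 to 238, 52 to 238 and 50 to 239, then 841 to 1062, 871 to 1063, 891 to 1062 and 911 to 1057, and then 1381 to 1551, 1382 to 1552, 1391 to 1552 and 1383 to 1552. Both genes thus had the same peaks in all 4 lists, with ends or starts shifted. ARHGEF26 had 405 to 817, 1016 to 1192 and 2751 to 2919 in unirradiated WT, 400 to 580, 591 to 835, 1024 to 1200 and 2791 to 2937 in irradiated WT, 607 to 819 and 984 to 1170 in unirradiated KO, and 451 to 570, 581 to 825 and 981 to 1196 in irradiated KO. Its most downstream peak was found in WT cells alone, and DHX36, a helicase of RNA quadruplexes, carried 2, 3, 3 and 2. RAD17, the loader of the checkpoint clamp (chromosome 5, 69369293 to 69414801), had peaks at 2829 to 2984, 2830 to 2985, 2829 to 2983 and 2831 to 2985. HRAS, the RAS GTPase, and CBS, the cystathionine synthase, had 1 peak in every list.

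Other transcripts were uneven. TCF20, a transcriptional coregulator, carried 3, 1, 3 and 3 peaks, and SIK1, a salt-inducible kinase, 3, 1, 3 and 1. GART, an enzyme of purine synthesis, carried 3, 2, 3 and 1, and INTS3, a subunit of the Integrator complex, 3, 2, 1 and 0. DENND11 and CLN8, with 4 and 3 peaks each in unirradiated WT and irradiated WT, had none in a KO list, and ICOSLG, a ligand of T cell costimulation, carried 1, 3, 0 and 0. DECR2, PHRF1, GTPBP6 and 1 unmatched noncoding transcript were likewise listed for WT cells alone, with and without UV. DDX52, an RNA helicase (chromosome 17, 37609739 to 37643446), had 3 peaks in irradiated WT alone, at 231 to 330, 2131 to 2285 and 2311 to 2486. ARHGAP27, PPP2R3B and NDUFA6-DT had 1 each in that list alone. CYFIP1 carried 0, 1, 2 and 3, AATF 0, 1, 1 and 2, and MRM1, a mitochondrial rRNA methyltransferase, 2, 2, 0 and 3.

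Peaks in both UV lists alone were found on EPHB6, at 1121 to 1367 and 1454 to 1663 in WT and 1149 to 1343 and 1454 to 1640 in KO cells, and on GPANK1, besides RING1, TAP1, F8A1 and SLX1A-SULT1A3. Peaks in the KO lists alone, with and without UV, were found on PRPF8, the core spliceosome protein, and on the pseudogene DUXAP10, but the PRPF8 peaks, at 1031 to 1170 and 6231 to 6330, did not coincide. GABBR1, CDIP1, CNOT3, MSH5 and the uncharacterised LOC100132062 had a peak in unirradiated KO alone, and GSDMD and MUC4 in unirradiated WT alone. The ribosomal RNA transcript RNA18SN5 had 1 peak, at 1691 to 1790 in irradiated KO, of the smallest width. ZBED1, a gene of the region shared by the X and Y chromosomes, had 3041 to 3160 in unirradiated WT, 2142 to 2334, 2442 to 2610, 3021 to 3380 and 3847 to 4133 in irradiated WT, 3874 to 4106 in unirradiated KO, and 2131 to 2335 and 3875 to 4108 in irradiated KO. The unirradiated WT and KO peaks thus did not overlap, and each overlapped a peak of irradiated WT. PRPF31, a splicing factor, had 358 to 521, 358 to 531, 358 to 520 and 358 to 520.

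All 572 peaks merged into 225 regions, of which 65 (28.9%, 23.4 to 35.1) held a peak of every list, beside 25.7% of the 20811 regions of all transcripts, and 32 (14.2%, 10.3 to 19.4) a peak of irradiated WT alone, beside 10.8%. Both backgrounds lay inside the intervals. For some other patterns the background lay outside. Both UV lists alone held 12 regions (5.33%, 3.08 to 9.09, beside 1.98%). Absent from irradiated KO alone were 11 (4.89%, 2.75 to 8.54, beside 12.4%), and absent from irradiated WT alone 7 (3.11%, 1.52 to 6.28, beside 1.39%). These 7 again include the regions of the copies GTF2H2B and GTF2H2C. Over the 65 shared regions, on 44 genes, the starts in the 4 lists spanned a median of 16 bases and the ends 20 bases. In 10 regions both spans were at most 10 bases, among them those of CBS, RAD17 and LSM14A. Regions were formed from overlapping peaks, so these spans describe overlapping peaks alone. A transcript could be found again with peaks apart, as on PHRF1, at 1873 to 2050 in unirradiated WT and 2211 to 2380 in irradiated WT. Centres of overlapping peaks differed by a median of 9 bases from irradiated WT to unirradiated WT, against 9.50 for all peaks, and by 7.50 from irradiated KO to unirradiated KO, against 11.

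Multicopy peaks were slightly narrower than those of other transcripts, with median widths of 177, 180, 174 and 166 bases against 186, 189, 183 and 177. A transcript carried 1.72, 1.81, 1.67 and 1.74 peaks on average, against 1.94, 1.92, 1.97 and 1.70 over all transcripts. No multicopy transcript had 5 or more peaks in a list (0 of 114), whereas 6.50% of all transcripts did. An approximate upper bound for 0 of 114, which is not a Wilson bound, is 2.63%. These differences were not tested.

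Peaks that began in the first 50 bases made up 7.35% (4.04 to 13.01), 7.91% (4.77 to 12.8), 10.8% (6.52 to 17.3) and 12.4% (7.78 to 19.2) of the multicopy peaks, against 9.22%, 10.3%, 9.05% and 10.7% of all. They lay on 21 genes. UTP4, a factor of ribosome biogenesis, had a peak from base 1 in every list, ending at 120, 166, 165 and 167, and PSMB3, a proteasome subunit, had 1 that began between 24 and 40 and ended between 140 and 180. NPEPPSP1 and SLC12A7 likewise had a start peak in every list. The letters GGAC, the core of the consensus at which METTL3 acts, were searched on the transcribed strand of the 50 bases after the start. Of the 21 genes, 16 had a window, some of them several. The letters were present in a window of 5 of these 16 genes, or in 6 of 19 windows (31.6%), and in 18.9% of all 35116 windows. No interval was computed for these few windows, the difference was not tested, and the peaks ran on past the 50 bases. GGAC was absent from the SLX1A-SULT1A3 window, which says only that these letters are not in those bases.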

How the data were processed

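The deposited values have no unit of signal (other): per the file contents, each entry of the authors' deposited lists gives a RefSeq transcript and the start and end of a peak along it, read as positions counted from 1 with both ends included. The submitters' processing notes name TopHat2 2.0.14 and hg38. The sources used here do not name the peak caller or its threshold, nor say how replicates, inputs and reads with several placements were handled. Genes were named through the RefSeq gene table (GRCh38.p14) after removal of the copy number. Peaks of 2 lists were shared when they overlapped by at least 1 base on the same transcript; alternatives were a stricter overlap, a minimum width, merging of near peaks, and leaving out gene groups. Shares carry 95% Wilson intervals. The multicopy rule, the gene groups and the alternatives were chosen with earlier results of these data known, and the families and 3 of the 8 MHC transcripts drawn were chosen after their values were seen. By the rule for named genes, positions in every list were given for up to 6 genes per group, those with the most peaks, and up to 10 genes of a list pattern were named. Other genes, these 3 (EHMT2, RING1 and TCF19) among them, were added after their values were seen. The code for overlaps was run on simulated peaks first. Analyses used Python 3.11.15, pandas 2.3.3 and matplotlib 3.10.9.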

Additional observations from a re-analysis of the deposited data

Results flagged for a closer look

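The number of multicopy peaks with UV minus that without UV was 41 in WT and -1 in KO cells. The sign of the difference also changed with genotype for 5 transcripts that had a peak in only 1 of the UV conditions of each genotype. Of these, 4 had peaks in WT plus UV and KO minus UV alone (3.51%, beside 3.81% of all transcripts). The other 1 had them in WT minus UV and KO plus UV alone (0.877%, beside 0.703%), so both shares were near the background. Transcripts with peaks in more lists could change sign too, such as DHX36 with 2, 3, 3 and 2, and were not counted here. With UV, CHRNA7 differed by 1 peak in WT and by -2 in KO cells, and LOC728554, POLR1H and SERF1B each by 1 in WT and -1 in KO cells. TAP2 differed by -1 in WT and 1 in KO cells. These differences between genotypes were not tested, since each condition has 1 list, and the lists rest on 3, 4, 3 and 2 IP libraries. Their part in the signs was not tested.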

How the results depend on the processing

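No paired analysis was possible because each condition has 1 list with no replicate values, and no replicate could be left out for the same reason. Of the 8 shares and 4 counts, 67 of 72 recomputed values stayed within the interval of the share as reported or within 1.5 times the count. Required to overlap by at least 50% of the longer peak, KO minus UV peaks without a WT minus UV overlap rose to 37.7% and KO plus UV peaks without a WT plus UV overlap to 29.5%. With peaks of at least 150 bases alone, KO minus UV peaks without a WT minus UV overlap came to 37.8%, WT plus UV peaks without a KO plus UV overlap to 51.4%, and the KO plus UV count to 81. Removing the copy number left all 8 shares at the same value. This was fixed in advance, since no accession was listed under more than 1 number or both with and without one. These 8 values are among the 67 and say nothing on robustness. Leaving out the near-identical families was added after the data were examined and, like leaving out the MHC region, kept every value in those bounds. Without the MHC region, however, the interval reached the share of all peaks for WT plus UV peaks not in WT minus UV (33.6%, 26.1 to 42.04) and for those not in KO plus UV (45.8%, 37.5 to 54.3). Without the families it did so for the first (33.6%, 26.3 to 41.7), as it did with peaks within 100 bases merged (36.6%, 29.6 to 44.3). For the second it did so with both stricter overlaps (36.96 to 51.4 and 41.3 to 55.9) and with peaks of at least 150 bases alone (43.2 to 59.6). For KO minus UV peaks not in KO plus UV the interval stayed below without the MHC region (34.8%, 25.8 to 44.9) and without the families (27.5%, 20.01 to 36.6). With peaks of at least 150 bases alone it reached the share of all peaks (37.8%, 28.8 to 47.6). The shares of all peaks used here are those of the lists as reported. They are not given under the alternatives, so these comparisons are not of like with like.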
